A study of Mus musculus with 12 samples.

Results

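The cytosolic ribosomal protein genes are the genes that encode the proteins of the cytoplasmic ribosome. They were taken from the count tables as the protein-coding genes whose symbol is Rpl, Rps or Rplp followed by a number and at most a short suffix, without the Rps6 kinases and without pseudogenes. The rule found 83 of the 55401 genes listed, of which 49 are Rpl genes of the large subunit, 3 are Rplp genes of its stalk and 31 are Rps genes of the small subunit. The choice used names only and no measured value. All 83 passed the filter on low counts in each of the 6 comparisons, and the lowest count of any member in any library was 15.

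RNA-seq was done on 12 libraries of 8-cell mouse embryos, each a pool of 10 embryos. Zygotes came from B6129F1 females of 3 to 5 weeks mated with B6CBAF1 males and were injected with siRNA together with H2B-EGFP mRNA at 150 ng/µl as a marker of injection. The groups were control siRNA at 15 µM (n = 2), siRNA against Nr5a2 at 5 µM (Nr5a2 KD, n = 3), siRNA against Klf5 at 10 µM (Klf5 KD, n = 3) and both siRNAs together (dKD, n = 4). Every embryo, control embryos included, was thus injected with an siRNA and with H2B-EGFP, and no uninjected embryos are among the libraries. A knockdown lowers an mRNA without removing the gene, and the concentrations combined for the dKD are not given in the sources used here. The labels do not say that the libraries of a group came from separate experiments, so p-values measure the spread between these pools only.

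A ribosome holds 1 copy of nearly every ribosomal protein, and excess proteins that are not assembled are degraded. The mRNAs of these genes therefore tend to be made in matched amounts, and in growing cells they are among the most abundant of all. Most of them carry at their first bases a terminal oligopyrimidine tract, a run of C and T that opens with C and puts their translation under the control of mTOR. In the mouse embryo they are transcribed from genome activation onwards and replace the ribosomes inherited from the oocyte. NR5A2 is an orphan nuclear receptor and KLF5 a zinc-finger factor, both present at this stage, and the comparisons ask which genes depend on either factor or on both.

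The starts of the genes are shown first because the tract is the sequence feature for which these mRNAs are best known. RefSeq promoter sequences of GRCm38.p6 matched 63 of the 83 members, and each run below holds 10 bases before the annotated start and 20 bases from it, with the tract in capitals. Rps6, Rpl13a, Rpl15, Rpl35a and Rpl38 were chosen to show the tract, and Rpl10, Rpl10l, Rpl39 and Rpl39l to compare the paralogues that the results turn on with their partners.
Rps6 (chr4:86857348-86857377, minus strand): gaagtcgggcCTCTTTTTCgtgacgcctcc
Rpl13a (chr7:45128726-45128755, minus strand): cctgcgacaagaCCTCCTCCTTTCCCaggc
Rpl15 (chr14:18270967-18270996, minus strand): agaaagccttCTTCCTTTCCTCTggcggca
Rpl35a (chr16:33056472-33056501, plus strand): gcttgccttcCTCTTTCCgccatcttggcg
Rpl38 (chr11:114668570-114668599, plus strand): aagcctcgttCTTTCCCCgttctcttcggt
Rpl10 (chrX:74270806-74270835, plus strand): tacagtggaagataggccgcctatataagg
Rpl10l (chr12:66284382-66284411, minus strand): cctccattttgcggctggcggtgggcacgc
Rpl39 (chrX:37085203-37085232, minus strand): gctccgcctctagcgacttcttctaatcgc
Rpl39l (chr16:10170218-10170247, plus strand): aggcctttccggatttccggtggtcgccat

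A run of at least 5 pyrimidines that opens with C within 3 bases of the annotated start was present in 25 of the 63 members (39.7%), against 13.5% of the 27025 genes with a promoter sequence. The tract lies at the start itself in Rps6, Rpl15, Rpl35a and Rpl38 and 2 bases after it in Rpl13a. No such run was found at the annotated start of Rpl10, Rpl10l, Rpl39 or Rpl39l. In the windows from 250 bases before to 50 bases after the start, read on both strands, the ETS motif CCGGAA was present in 39.7% of the members and 13.6% of all genes. The NR5A motif TCAAGG was present in 5 members (7.94%), namely Rpl9, Rpl15, Rpl31, Rps13 and Rps28, and in 14.1% of all genes. The longer NR5A motif TCAAGGTCA was present in 0 members and in 0.422% of all genes. The short KLF motif CACCC was present in 57.1% of the members and 54.5% of all genes, and the longer GGGTGTG in 4.76% and 7.9%. Matches to these letters are descriptions of the sequence and not of binding, and annotated starts can lie some bases away from the start used in the embryo.

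Each library held between 6676683 and 12560926 gene counts, and the members alone took 674536 to 1327747 counts. In each group the targeted mRNA was lowered, with Nr5a2 at 218 CPM in control, 32.0 in Nr5a2 KD and 29.7 in dKD, and Klf5 at 455 in control, 111 in Klf5 KD and 56.1 in dKD (group means). CPM are counts relative to library size, the libraries being scaled with TMM factors over all 12. Klf5 was also lower in Nr5a2 KD (log2 fold change -1.68, edgeR adjusted p = 0.0013's quasi-likelihood test), and in Klf5 KD its own fall missed the threshold (log2 fold change -2.03, adjusted p = 0.0996). Of 15 markers of the 8-cell embryo Dppa3 led with 14445 to 29534 CPM, and Cdx2 and Sox2 were at 0 in the median library. The summed level of 12 cumulus or granulosa cell markers was 0.591 to 3.86 CPM over all libraries, with 4 of them at 0 in every library (Lhcgr, Ptx3, Inhba and Col1a2), that of 6 sperm markers was 0.284 to 2.82 CPM, and that of 8 oocyte markers was 65.1 to 130 CPM. Mitochondrially encoded genes took 10.4 to 13.2% of the gene counts in 7 libraries and 4.41 to 8.28% in the other 5, which are Nr5a2 KD replicate 3, Klf5 KD replicates 1 and 2 and dKD replicates 3 and 4. These 5 libraries stand apart in the members too, as described below, so the values that move most when they are left out are also given without them. Leaving them out was chosen after seeing the data, and it leaves 2 libraries of control, Nr5a2 KD and dKD and 1 of Klf5 KD.

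In control embryos the members spanned 3.04 to 22170 TPM with a median of 793 TPM. TPM are counts per base of the deposited exon length, scaled to the same total in every library, so they allow levels of different genes to be compared. Of the 200 genes with the highest TPM in control, 50 were members, and 8 of the top 50 were. Rpl41, which encodes the smallest protein of the ribosome, was highest at 22210 and 22130 TPM in the 2 control libraries, at rank 5 among all genes. It was followed by Rps29 (5668 and 6202 TPM), Rplp1 (4265 and 4464), Rpl38 (4138 and 4159) and Rps15 (3363 and 3757). Rpl41 and Rps29 stood apart from the next gene by more than the gap between the control libraries, whereas Rplp1 and Rpl38 lay close together. The exon length counts all annotated exons and is longer than a single mRNA for most members. With the length of the principal transcript the order had a Spearman correlation of 0.813 with this one across the 83 members. Rpl41 and Rps29 then still ranked 1 and 2 among the members, but the next places went to Rpl39, Rps24 and Rps27l, with Rpl38 at rank 8, Rps15 at 13 and Rplp1 at 16.

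At the other end were Rpl7l1 (156 ± 7.92 TPM, SD, n = 2), Rpl27a (142 ± 4.03), Rpl22l1 (78.5 ± 10.6), Rpl10l (59.8 ± 4.97) and Rpl3l (3.04 ± 1.25). All of these except Rpl27a are paralogues of another member. Rpl3l, known from skeletal and heart muscle, was at 15 and 30 counts in the control libraries and between 17 and 58 counts in the others, which is 0.662 to 3.23% of Rpl3 per base of exon length. Rpl22l1 was at 18.8 and 21.5% of Rpl22 in control, and Rpl7l1 at 10.9 and 11.1% of Rpl7. Rpl39l, known from male germ cells, was at 41.5 and 38.8% of its X-linked partner Rpl39. Rpl36al, a paralogue of the X-linked Rpl36a with a single exon, was at 77.5 and 75.4% of it, and Rps27l, known as a target of p53, exceeded Rps27 in every library (190 to 274% of it). The size of these ratios depends on the length used. Per base of the principal transcript the control means were 2.48% for Rpl10l, 17.7% for Rpl39l, 0.775% for Rpl3l, 53.9% for Rpl22l1, 115% for Rps27l, 23.7% for Rpl36al and 4.6% for Rpl7l1. The length changes a ratio by the same factor in every library, so it does not alter the order of the libraries. Ratios that involve Rps27 are uncertain, because 98.6% of the 50-base words in its transcript recur in other genes, chiefly Rps27rt, and the counting left out reads that map to several places.

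The share of all gene counts that fell on the members overlapped between the 4 groups. It was 9.97 and 10.3% in the control libraries, 13.0, 11.8 and 9.43% in Nr5a2 KD, 10.6, 10.0 and 11.6% in Klf5 KD and 11.7, 10.9, 10.0 and 9.63% in dKD. Every knockdown group held a library above both controls, Nr5a2 KD and dKD also held a library below both, and the ranges of the 4 groups overlapped. In the knockdown libraries with a mitochondrial share over 10% the member share was 10.9 to 13.0%, above both controls. In the 5 libraries with a lower mitochondrial share it was 9.43 to 10.6%. Of nuclear-encoded counts alone, the former had 12.45 to 14.5%, the controls 11.5 and 11.9%, and the 5 libraries 10.05 to 11.1%. The small subunit supplied 39.0 to 40.7% of the member counts in every library. Rpl41 alone gave 15.0 and 15.5% of them in control and 11.7 to 15.0% in the knockdowns. Processed pseudogenes of these genes (294 listed) took 0.0939 to 0.134% of gene counts. Read pairs on them were thus few, but 41 members had over 50% of their 50-base words in other genes, so their own counts may be incomplete.

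**Figure D1:**
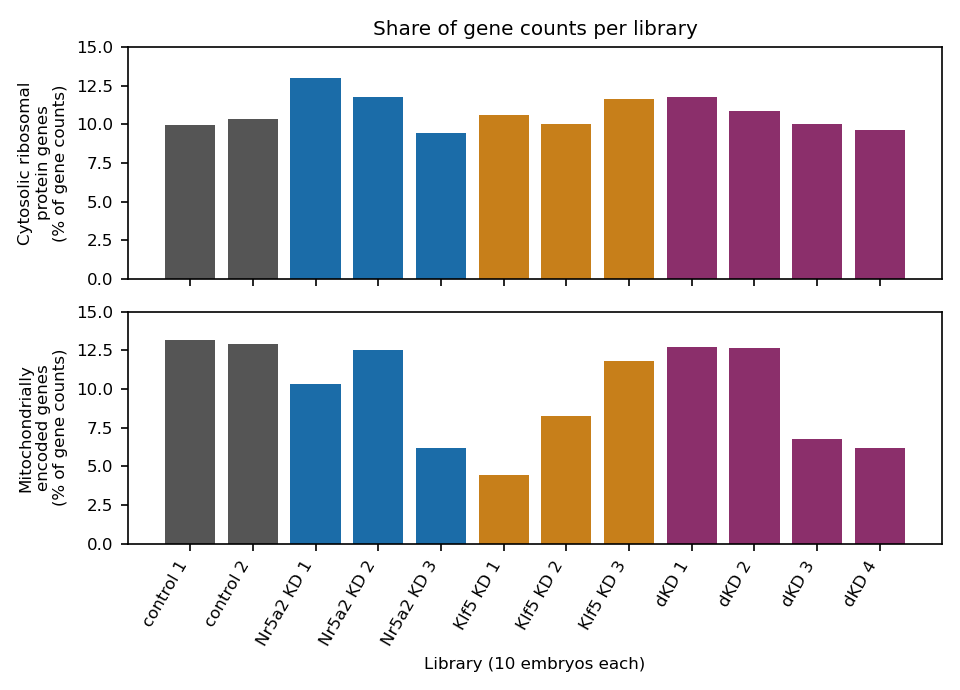
Bars give the percentage of gene counts on the 83 cytosolic ribosomal protein genes (top) and on the mitochondrially encoded genes (bottom) in each of the 12 libraries, coloured by group. The member share lay between 9.43 and 13.0% with overlapping groups, while the mitochondrial share fell to 4.41 to 8.28% in 5 knockdown libraries.

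Counted against the ERCC spike-ins, RNAs added in equal amount at lysis, the members were at 24.97 and 22.4 counts per spike-in count in control and at 30.6 to 49.0 in the 10 knockdown libraries, with no overlap. This difference was not particular to the members. With library sizes taken from the spike-ins, the median log2 fold change against control was 0.85, 0.78 and 0.71 for the members in Nr5a2 KD, Klf5 KD and dKD, and 0.82, 0.66 and 0.84 for all genes tested. A pool with more RNA and a pool with less spike-in cannot be told apart here. The comparisons below are therefore relative to the other genes of a library, and in pooled embryos fewer cells of a type and less RNA per cell cannot be told apart either.

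In Nr5a2 KD against control, a single member passed the test. Rpl10l was higher, 82 members did not pass, and no member was lower. Among all 13262 genes tested, 3.72% were higher and 5.32% lower at an adjusted p under 0.05 by edgeR's quasi-likelihood test, so the share of members that passed (1 of 83) was below the background. With a 2-fold change required as well, the background was 7.86% and Rpl10l still passed. The median log2 fold change was 0.11 over the members and 0.04 over all genes, and 65 members had a positive and 18 a negative value. Without replicate 3, the Nr5a2 KD library of low mitochondrial share, the members' median was 0.28, and without replicate 1 it was -0.03. At an unadjusted p under 0.05 the count was 1 member (1.2%) against 24.1% of all genes. The 95% interval of the log2 fold change lay inside a 2-fold change in either direction for 77 of the 83 members, which bounds the changes of most members but does not show that they were equal to control. The libraries of the groups did not overlap for 11 members, all of them higher, against 20% of all genes higher and 22.5% lower in this way (42.5% in all). Among these were Rpl3, Rpl7a, Rpl8, Rpl10, Rpl10l, Rpl28, Rplp0, Rps2, Rps4x and Rps9.

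Rpl10l is an intronless copy of the X-linked Rpl10 and is known for replacing it in male germ cells, where the X chromosome is silenced. It lies on chromosome 12 of GRCm38 from 66283379 to 66284401 on the minus strand and consists of a single exon. It was at 41.5 and 35.96 CPM in control, at 70.6, 101 and 150 CPM in Nr5a2 KD, at 79.3, 59.7 and 29.7 CPM in Klf5 KD and at 66.9, 61.8, 161 and 149 CPM in dKD. All 7 libraries with Nr5a2 siRNA were above both control libraries, while those of Klf5 KD lay on both sides of them. In counts these levels were 202 to 1361 reads per library. Relative to control, Nr5a2 KD had a log2 fold change of 1.5 (SE 0.322, edgeR adjusted p = 0.0143, SE being the standard error) and dKD one of 1.55 (SE 0.415, edgeR adjusted p = 0.0422). The comparisons share the control libraries. Two-sided exact permutation tests gave p = 0.2 and p = 0.133, the smallest that these group sizes allow. In Klf5 KD the log2 fold change was 0.55 (SE 0.38, edgeR adjusted p = 0.699).

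Within the groups Rpl10l was highest in the libraries with a low mitochondrial share. These were Nr5a2 KD replicate 3, dKD replicates 3 and 4, and Klf5 KD replicate 1. Without the 5 libraries under 10%, a choice made after seeing the data, the log2 fold change of Nr5a2 KD was 1.17 (SE 0.228, edgeR adjusted p = 0.00774, 2 libraries against 2) and that of dKD 0.76 (SE 0.2, edgeR adjusted p = 0.055, 2 against 2). The call in dKD was thus lost. In Klf5 KD, where 1 such library remained, the value turned from positive to negative (-0.40, edgeR adjusted p = 0.727). With the mitochondrial share as a covariate the log2 fold changes were 1.07 and 0.69 (adjusted p = 0.058 and 0.0529). Over 9 alternatives to the test, scaling, filter and covariates, the adjusted p ranged from 5.21e-06 to 0.0744 in Nr5a2 KD and from 2.13e-06 to 0.0538 in dKD, and 7 of the 9 passed in each. Leaving out either control library lost the call in both comparisons, and leaving out dKD replicate 3 or dKD replicate 4 lost it in dKD (adjusted p = 0.068 and 0.0905).

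Little of the Rpl10l transcript recurs elsewhere, with 7.6% of its 50-base words found in another gene, a pseudogene, and none of its exon overlapping another gene. Rpl10, by contrast, shares 85.4% of its words with other genes. Rpl10 lies on chromosome X from 74270812 to 74273135, and was at 1346 and 1259 CPM in control, 1752, 1555 and 1417 in Nr5a2 KD, 2125, 1467 and 1153 in Klf5 KD and 1377, 1188, 1242 and 1405 in dKD. Its log2 fold change was 0.30 in Nr5a2 KD (SE 0.21, edgeR adjusted p = 0.428) and 0.04 in dKD (SE 0.178, edgeR adjusted p = 0.923). Per base of exon length Rpl10l was at 6.19 and 5.73% of Rpl10 in control. The ratio ranged from 8.09 to 21.2% in Nr5a2 KD and from 9.75 to 25.97% in dKD, and from 5.16 to 8.16% in Klf5 KD. Rpl10l therefore remained the minor form in each of the 12 libraries, and every library with Nr5a2 siRNA had a higher ratio than both controls.

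Rpl39l followed another pattern. It lies on chromosome 16 from 10170226 to 10174911, has 3 exons and shares no 50-base word with another gene. It was at 588 and 625 CPM in control, 1133, 906 and 537 in Nr5a2 KD, 543, 397 and 722 in Klf5 KD and 893, 773, 550 and 455 in dKD. The libraries of Nr5a2 KD and dKD with a mitochondrial share over 10% were above control and the others were below it. The log2 fold change of 0.52 in Nr5a2 KD did not pass (SE 0.282, edgeR adjusted p = 0.289), but without replicate 3, the library of that group with a low mitochondrial share, it was 0.77 and passed (SE 0.166, edgeR adjusted p = 0.0124). Rpl39, whose coding sequence has the same length of 153 bases, was at 2445 and 2778 CPM in control, 2258, 2546 and 1169 in Nr5a2 KD, 1907, 1848 and 2569 in Klf5 KD and 2308, 2173, 971 and 1185 in dKD. Per base of exon length Rpl39l was at 41.5 and 38.8% of Rpl39 in control, 86.6, 61.4 and 79.2% in Nr5a2 KD, 49.1, 37.1 and 48.5% in Klf5 KD and 66.8, 61.4, 97.8 and 66.3% in dKD. The ratio was above 60% in all 7 libraries with Nr5a2 siRNA and below 50% in the 5 without it, in libraries of both low and high mitochondrial share. Per base of the principal transcript it was 27.0 to 43.1% in the former and 16.3 to 21.6% in the latter. This ratio was singled out after its values were seen and was not tested.

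**Figure D2:**
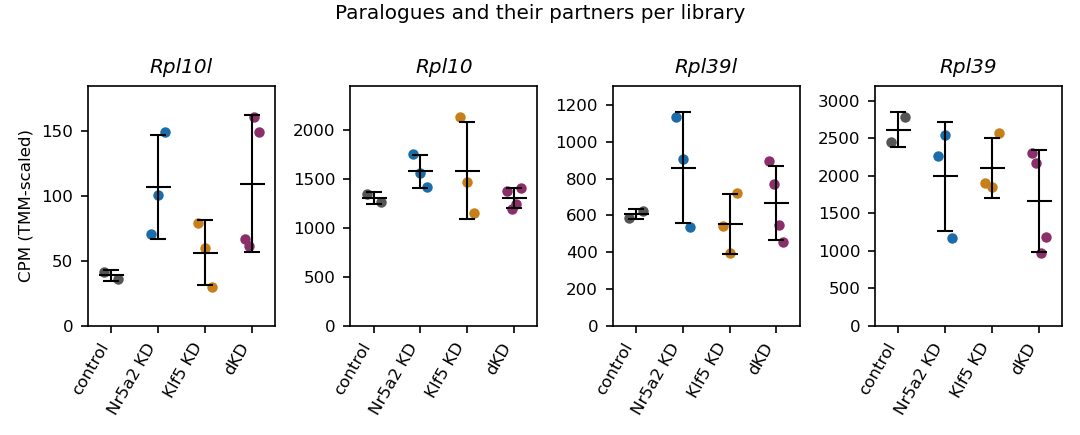
Points give the TMM-scaled CPM of Rpl10l, Rpl10, Rpl39l and Rpl39 in each library, with the mean and SD of each group (n = 2, 3, 3 and 4). Rpl10l is above both control libraries in all 7 libraries with Nr5a2 siRNA, and the Rpl39l and Rpl39 values are spread widely within the knockdown groups.

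In Klf5 KD against control, no member passed the test. Over all 12838 genes tested the background was likewise 0% lower and 0% higher at an adjusted p under 0.05 by edgeR. At an unadjusted p under 0.05, 3 members (3.61%) and 8.47% of all genes were counted, and DESeq2 also called 0 members. The median log2 fold change was 0.15 over the members and 0.00 over all genes, with 61 members positive and 22 negative. The 95% interval lay within a 2-fold change for 72 members. The members with the smallest p were Rpl3 (log2 fold change 0.71), Rps3 (0.70) and Rpl4 (0.76), with adjusted p = 0.531, 0.551 and 0.565 by edgeR. Without Klf5 KD replicates 1 and 2, the libraries of low mitochondrial share, these values fell to 0.45 for Rpl3, 0.31 for Rps3 and 0.082 for Rpl4. Rpl3 and Rpl4 are core proteins of the large subunit, and Rps3 lies at the mRNA entry of the small subunit.

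Rps3 was at 1078 and 1097 CPM in control and at 2318, 1587 and 1358 in Klf5 KD, against 1152, 1036 and 1212 in Nr5a2 KD and 916, 974.8, 1443 and 1270 in dKD. All libraries of Klf5 KD were above control, and replicate 1, with the lowest mitochondrial share of all libraries, was highest. The libraries of Klf5 KD and control did not overlap for 27 members, all higher in Klf5 KD, which is 32.5% of the members against 12.6% of all genes higher and 14.4% lower in this way. Of these 27 members, 18 belong to the 28 with the longest coding sequences and 1 to the 28 with the shortest. Klf5 KD replicate 3 is the only library of this group with a mitochondrial share over 10%. With it alone against the 2 control libraries the median log2 fold change of the members was 0.25, and 2 members (of 83) passed, Rpl38 and Rplp1, both higher, against 0.511% of all genes higher and 0.905% lower in that fit, under the assumption that a single library varies like the controls.

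In dKD against control, Rpl10l was again the single member that passed, higher, and 0 were lower. Among all 13724 genes tested, 3.75% were higher and 4.59% lower at an adjusted p under 0.05, and 7.24% passed with a 2-fold change required as well, as Rpl10l did. The median log2 fold change was -0.06 over the members and 0.05 over all genes, with 35 members positive and 48 negative. With total counts both medians rose, to 0.08 and 0.20, and the members stayed below all genes. The members lay above all genes without the 5 libraries of low mitochondrial share (medians of 0.08 and 0.03, 55 members positive and 28 negative), with a replicate block (0.08 and 0.03) and after adjustment for mitochondrial share (0.09 and 0.04). At an unadjusted p under 0.05 there were 5 members (6.02%) against 25% of all genes. The 95% interval was within a 2-fold change for 75 members. After Rpl10l the smallest adjusted p was 0.132 for Rpl3, at 447 and 377 CPM in control and 550, 467, 857 and 687 in dKD. Its log2 fold change was 0.68, and 0.33 without dKD replicates 3 and 4. Rpl24, at the bridge between the subunits, was at 918 and 1000 CPM in control and 781, 705, 602 and 529 in dKD, all lower (log2 fold change -0.51, SE 0.199, edgeR adjusted p = 0.134), and -0.34 without dKD replicates 3 and 4. The libraries did not overlap for 12 lower and 9 higher members, against 19.2% of all genes lower and 17% higher in this way.

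The members split by length in this comparison. Of the 28 members with the shortest coding sequences 25 had a negative value and 3 a positive one, while of the 28 longest 7 were negative and 21 positive, with medians of -0.14 and 0.15. The 9 members that were higher without overlap were 8 of the longest 28 and 1 between. In the other control comparisons the medians of short and long members were 0.06 and 0.19 in Nr5a2 KD and -0.05 and 0.33 in Klf5 KD. All 28 long members were positive in Klf5 KD. Without the 5 libraries of low mitochondrial share the split was gone, with medians of short and long members of 0.09 and 0.00 in dKD, 0.28 and 0.22 in Nr5a2 KD and 0.26 and 0.18 in Klf5 KD. In dKD 9 of the 28 short and 14 of the 28 long members were then negative.

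The stalk genes followed this division in part. Rplp0, the long one, anchors the stalk, and Rplp1 and Rplp2 are the small acidic proteins that recruit translation factors. Rplp0 was at 2025 and 2077 CPM in control, at 2674, 2668 and 2928 in Nr5a2 KD, at 3482, 2564 and 2337 in Klf5 KD and at 2205, 2186, 3558 and 3510 in dKD. It was above control in every knockdown library, with log2 fold changes of 0.45, 0.46 and 0.52 that did not pass in Nr5a2 KD, Klf5 KD and dKD (edgeR adjusted p = 0.209, 0.626 and 0.222). Without the 5 libraries these were 0.41, 0.18 and 0.12. Rplp1 was at 1365 and 1391 CPM in control, 1638, 1409 and 646 in Nr5a2 KD, 1263, 1229 and 1867 in Klf5 KD and 1441, 1177, 717 and 701 in dKD. In Nr5a2 KD and dKD it was lowest in the libraries with a low mitochondrial share. Rplp2 had a control level of 1425 ± 110 CPM (SD, n = 2) and means of 1490, 1573 and 1238 CPM in Nr5a2 KD, Klf5 KD and dKD. Its control libraries were at 1347 and 1503 CPM. In the libraries of low mitochondrial share it was at 1055 in Nr5a2 KD, 1158 and 988 in dKD, and 1570 and 1344 in Klf5 KD. In Klf5 KD all 3 stalk genes had a positive log2 fold change.

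With all libraries, no member passed in the 3 comparisons between knockdowns. In dKD against Klf5 KD, the contrast that adds the Nr5a2 siRNA, 6.73% of 12904 genes were lower and 5.91% higher, whereas 73 members had a negative and 10 a positive value with a median of -0.20, against 0.02 for all genes. The smallest adjusted p was 0.0809 by edgeR, for Rpl24, and that of Rps16 was 0.113. The libraries did not overlap for 11 members, all lower in dKD, against 12.6% of all genes lower and 12.3% higher in this way. At an unadjusted p under 0.05 there were 8 members (9.64%) against 26.6% of all genes, and DESeq2 called 1 member, Rpl24 (adjusted p = 0.0412). With the mitochondrial share as a covariate 14 members (of 83) were lower and Rpl10l was higher, against 10.5% of all genes lower and 9.25% higher in that fit. The lower ones included Rplp1 (log2 fold change -0.73, edgeR adjusted p = 0.00484), Rpl24 (-0.70, adjusted p = 0.00521) and Rpl41 (-0.50, adjusted p = 0.0054). With total counts the median was 0.01 over the members and 0.24 over all genes, so the members lay below all genes with either scaling.

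In dKD against Nr5a2 KD, the contrast that adds the Klf5 siRNA, the background was 0% in both directions over 13017 genes by edgeR, and at an unadjusted p under 0.05 there were 0 members against 3.43% of all genes. DESeq2 called 0 members. The median was -0.16 over the members and 0.01 over all genes, with 74 members negative and 9 positive. The members' median was -0.20 without the libraries of low mitochondrial share, -0.11 with total counts and -0.07 with a replicate block. With each library left out in turn it ranged from -0.32 to 0.02. The 95% interval lay within a 2-fold change for 81 members. The smallest p values belonged to Rpl10 (log2 fold change -0.27), Rpl36a (-0.35) and Rpl39l (-0.36), each with an adjusted p of 0.999. Only for Rpl10 did the libraries not overlap, lower in dKD, against 2.43% of all genes lower and 2.34% higher in this way. Rpl10l differed by 0.04 (95% interval -0.76 to 0.85), and by -0.41 (SE 0.235) without the libraries of low mitochondrial share. In Klf5 KD against Nr5a2 KD 6.05% of 12668 genes were lower and 6.52% higher, and among the members Rpl10l (-0.94, adjusted p = 0.109) and Rps3 (0.61, adjusted p = 0.145) had the smallest p by edgeR. Without the libraries of low mitochondrial share, 1 against 2, Rpl10l was at -1.55 and passed (edgeR adjusted p = 0.00021) if the single Klf5 KD library is assumed to vary like the 2 of Nr5a2 KD, against 4.29% of all genes lower and 5.51% higher in that fit, and Rps3 was at 0.30. With each library left out in turn Rpl10l ranged from -1.26 to -0.60 and did not pass. At an unadjusted p under 0.05 there were 2 members (2.41%) against 25.9% of all genes. Rpl13a and Rps3 were higher in Klf5 KD without overlap, against 15.7% of all genes higher and 15.2% lower in this way.

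**Figure D3:**
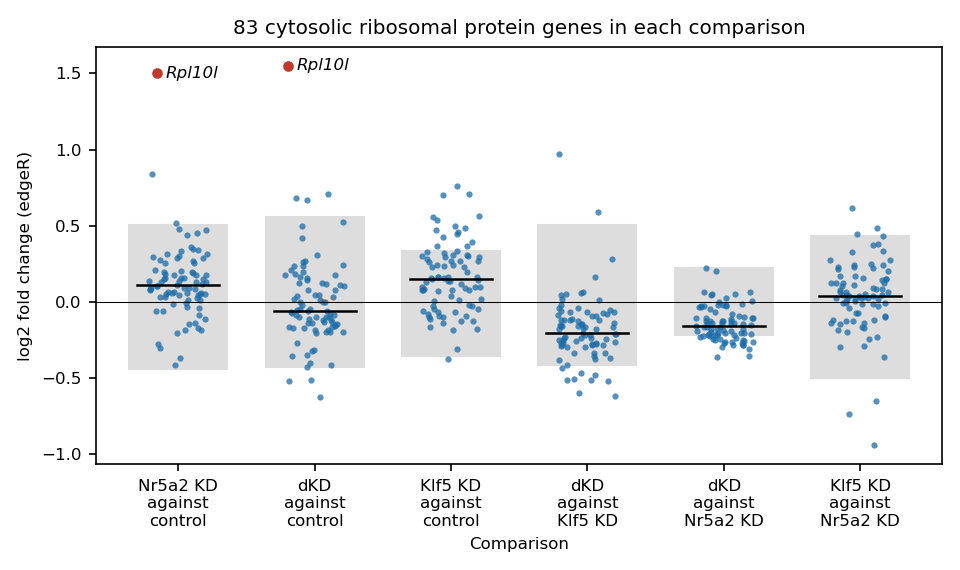
Each point is the log2 fold change of a member from edgeR in the named comparison, red where the adjusted p is under 0.05, the black line is the members' median and the grey box spans the interquartile range of all genes tested. Apart from Rpl10l in Nr5a2 KD and dKD against control, no member passed, and the members' medians lie between -0.20 and 0.15.

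Several members are known for roles outside the ribosome or in disease, and none of them passed in any comparison with all libraries of its groups and no covariate. Without the 5 libraries of low mitochondrial share many of their small values changed size or sign. Rps6, the substrate of the S6 kinases, had a control level of 763 ± 31.7 CPM (SD, n = 2) and log2 fold changes of 0.06, 0.54 and 0.13 in Nr5a2 KD, Klf5 KD and dKD, which were -0.08, 0.13 and -0.27 without those libraries. Rpl5 and Rpl11, which bind MDM2 together with 5S rRNA, had values of 0.16, 0.30 and 0.15 for Rpl5 and 0.05, 0.10 and -0.08 for Rpl11. Without those libraries they were 0.14, 0.14 and -0.08 for Rpl5 and 0.25, 0.27 and 0.05 for Rpl11. Rpl38, linked to the translation of Hox mRNAs, had 0.09, 0.08 and -0.14. Without those libraries it had 0.32, 0.46 and 0.10, and the value in Klf5 KD, 1 library against 2, passed (edgeR adjusted p = 0.0225) if that library is assumed to vary like the controls. Rpl23, Rpl26, Rpl35a, Rps14, Rps19 and Rps20 were between 85.1% and 109% of the control mean in the 3 knockdowns, and Rpl13a between 86.3% and 120%. Without those libraries the log2 fold changes of the former lay between -0.013 and 0.36. Rps4x, on the X chromosome, was at 120, 125 and 103% of control. Without those libraries its log2 fold changes were 0.25, -0.19 and -0.07, below control in Klf5 KD and dKD. Rpsa, Fau and Rack1, which are among the ribosomal protein genes that the rule leaves out by their names, also did not pass in any of the 6 comparisons.

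Within groups the members varied mostly along a common axis. The SD of log2 CPM within groups was 0.284 in the median member. It was 0.283 in the 457 coding genes of similar or higher abundance and 0.44 in all 11793 coding genes tested. Both of these sets include members, so they are not independent of them. Rpl10l was the most variable member (0.637) and Rpl13a the least (0.131). A principal component analysis of the members' deviations from their group means put 78.8% of the variance on the first component. The loadings followed the length of the coding sequence, with a Spearman correlation of 0.817 across the 83 members, which come from the same 12 libraries. At its negative end were Rps27, Rps15a, Rplp1, Rpl22l1, Rpl39 and Rps29, with coding sequences of 153 to 390 bases, and at its positive end Rpl10l, Rpl4, Rps6, Rplp0, Rpl3 and Rps3, with 642 to 1257 bases.

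To describe this axis in each library, the 28 members with the longest coding sequences (576 to 1257 bases) were compared with the 28 shortest (138 to 393 bases), sets chosen after the pattern was seen and not tested. The median log2 difference from the control mean was taken in each set, and the value for the short set was subtracted from that for the long set. It was 0.05 and -0.05 in control, -0.06, -0.11 and 0.65 in Nr5a2 KD, 0.76, 0.55 and -0.08 in Klf5 KD and -0.09, -0.03, 0.72 and 0.83 in dKD. The 5 libraries with 4.41 to 8.28% of counts on mitochondrial genes thus had 0.55 to 0.83, and the 7 with 10.4 to 13.2% had -0.11 to 0.05, without overlap. The split ran through every knockdown group and not between them. Both control libraries were on the high mitochondrial side, so a comparison of a knockdown with control also compares libraries of both kinds with libraries of a single kind.

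**Figure D4:**
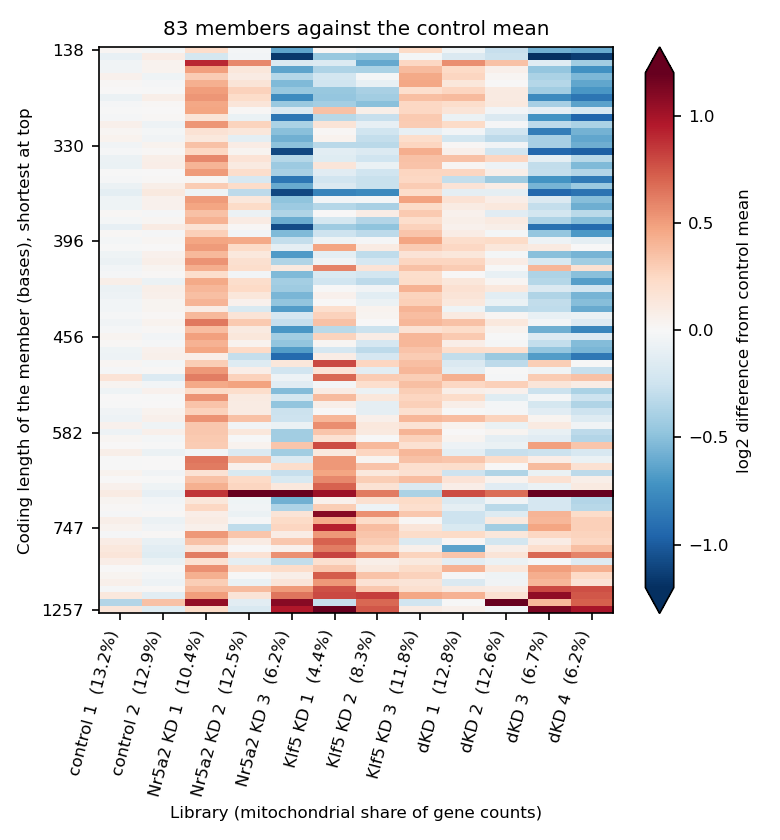
Rows are the 83 members ordered by coding length, columns the 12 libraries with their mitochondrial share, and colour gives the log2 difference in CPM from the control mean. In the 5 libraries with a share of 4.41 to 8.28% the median of the short members is lower and that of the long ones higher than in control, while some single members go the other way.

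A like division was present in abundant genes outside the class. Among other coding genes of similar or higher abundance, the 146 with coding sequences in the range of the long members minus the 87 no longer than the short members gave 0.45 to 0.64 in the 5 libraries and -0.15 to 0.05 in the other 7. Over other coding genes of every abundance in the same length ranges (3950 long and 726 short) it was weaker, at 0.10 to 0.50 in the 5 libraries and -0.12 to 0.10 in the other 7, and Klf5 KD replicate 1 (0.10) then lay level with dKD replicate 2 (0.10). Over all tested coding genes, most of them longer, the Spearman correlation of the log2 difference with coding length was between -0.21 and 0.07 in the 12 libraries, against 0.68 to 0.78 for the members in the 5 libraries. For the spike-ins, 21 had at least 20 counts in every library, with lengths of 505 to 1124 bases. Those of at least 1000 bases minus those of at most 550 gave -0.06 to 0.07 in the 5 libraries and -0.23 to 0.03 in the other 7, which rests on 10 against 6 spike-ins. These are lengths of whole RNAs. None is as short as the coding sequences of the short members. The principal transcripts of the short members run from 345 bases (Rps27) to 5179 (Rps15a), so many of them lie within the range of the spike-ins. The spike-ins therefore do not match the members by coding length. The spike-ins also took a smaller share of the counts in the 5 libraries (0.204 to 0.247%) than in the other 7 (0.285 to 0.459%). What sets these libraries apart was not tested.

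**Figure D5:**
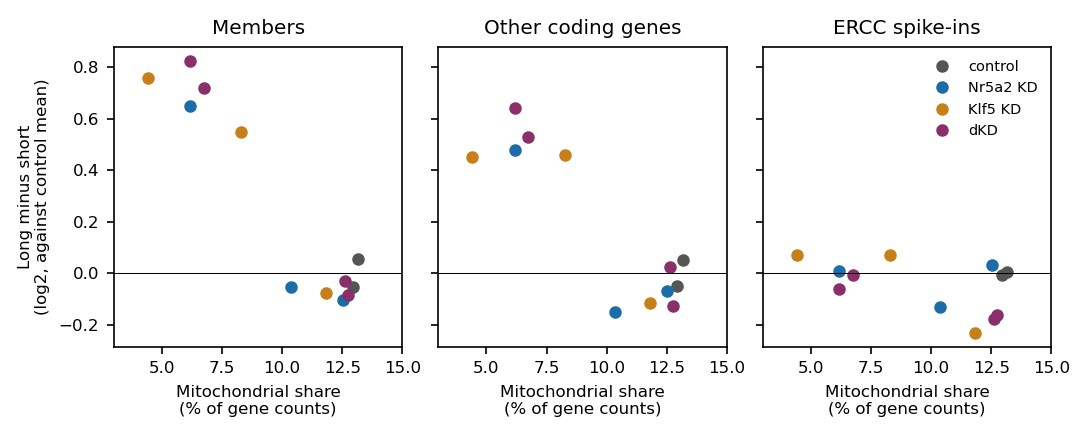
Each point is a library, with the mitochondrial share of gene counts on the x axis and the long minus short difference (log2, against the control mean) on the y axis for members, other coding genes of similar or higher abundance and ERCC spike-ins. The 5 libraries on the left have 0.55 to 0.83 in the members and 0.45 to 0.64 in the other genes, and -0.06 to 0.07 in the spike-ins. Members and other genes are split by coding length, the spike-ins by the length of the whole RNA.

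The genes that build and regulate the ribosome were compared in the same fits, as lists. Of 83 genes of the mitochondrial ribosome, 2 rose in Nr5a2 KD, 2 rose and 3 fell in dKD and 0 passed in Klf5 KD, with medians of 0.21, 0.10 and 0.19. Mrpl16 was higher in both Nr5a2 KD (log2 fold change 1.07, edgeR adjusted p = 0.0337) and dKD (1.19, adjusted p = 0.0214), and Mrps16 was lower in dKD (-0.93, adjusted p = 0.0423). Of 55 genes of ribosome biogenesis found in the files, 2 rose and 1 fell in Nr5a2 KD and 1 rose in dKD, with medians of 0.32 and 0.41. Utp14a, of the small subunit processome, and Las1l, an rRNA processing factor, rose in Nr5a2 KD (0.98 and 0.99, adjusted p = 0.027 and 0.0384 by edgeR), and Nop2, an rRNA methyltransferase, rose in dKD (0.85, adjusted p = 0.0475). None of the 14 chaperones and importers of ribosomal proteins and none of the 9 other mRNAs with a pyrimidine tract passed in any comparison. At 83, 55 and 14 genes these lists hold a share of passing genes below the background of 9.03% in Nr5a2 KD and 8.34% in dKD, both directions together.

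Among translation factors and their regulators some changes exceeded 2-fold. Eif4e, which binds the mRNA cap, was at a mean of 2482 CPM in control, 954 in Nr5a2 KD, 3300 in Klf5 KD and 1088 in dKD, and fell in Nr5a2 KD (log2 fold change -1.35, edgeR adjusted p = 0.00431) and dKD (-1.15, adjusted p = 0.00855). Eif5, which acts in start codon recognition, fell in Nr5a2 KD (-0.85, adjusted p = 0.0361), and Eef1b2, an exchange factor for elongation factor 1A, rose in Nr5a2 KD (0.88, adjusted p = 0.0299) and dKD (0.79, adjusted p = 0.027). In all 2 of 36 translation factors fell and 1 rose in Nr5a2 KD, 1 fell and 1 rose in dKD and 0 passed in Klf5 KD, with medians of 0.24, 0.37 and 0.34. This is 8.33% and 5.56% of the list in Nr5a2 KD and dKD, below the background. Of 24 genes of mTOR signalling and of the control of pyrimidine-tract mRNAs, 2 fell and 2 rose in both Nr5a2 KD and dKD and 0 of the 21 tested passed in Klf5 KD, with medians of -0.19, -0.07 and -0.20. This is 16.7% of the list in each of Nr5a2 KD and dKD, against backgrounds of 9.03% and 8.34%. The ones that rose were Rps6ka1, an S6 kinase of the RSK family (1.89 in Nr5a2 KD, adjusted p = 0.0389), and Mycn, at a mean of 0.0671 CPM in control and 3.07 CPM in Nr5a2 KD. Larp4, an RNA-binding protein of the poly(A) tail, was at 2129 CPM in control, 662 in Nr5a2 KD, 1852 in Klf5 KD and 740 in dKD (log2 fold change -1.66 in Nr5a2 KD, edgeR adjusted p = 0.000881). Deptor, an inhibitor of mTOR, was at 71.4, 25.9, 54.5 and 21.4 CPM (-1.70 in dKD, adjusted p = 0.00534). Eif4e, Larp4 and Deptor thus had lower means in both groups with Nr5a2 siRNA than in control, while the median of the 83 cytosolic ribosomal protein genes in those groups was 0.11 and -0.06.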

How the data were processed

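RNA-seq was analysed from 12 libraries of 8-cell embryos, assigned to groups by their labels. The authors trimmed read pairs with Trim Galore 0.6.2, aligned them with STAR to GRCm38 extended by the spike-ins and the H2B-EGFP transgene, and counted pairs over exons with featureCounts 2.0.1 without strand. The file headers name a filtered alignment. The values deposited by the authors are estimated counts, since a pair that overlaps several genes adds a fraction to each. They were rounded before testing. Of the members, 71 had a value that is not whole in at least 1 library, and 38 have an exon that overlaps another gene. SMART-seq libraries carry no molecular identifiers, so counts measure reads and not molecules.

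Genes were named from GENCODE M21. For each comparison, edgeR 4.0.16 (R 4.3.3) was fitted to the libraries of its groups with filterByExpr (minimum count 10, minimum total 15), TMM factors, glmQLFit and glmQLFTest, and p-values were adjusted over all genes tested (Benjamini-Hochberg). A gene passed at an adjusted p under 0.05. The study's minimum of 2-fold left the count of members as it was. Standard errors and 95% intervals come from the quasi-likelihood F statistic. Log2 differences per library use CPM + 0.5. The alternatives were DESeq2 1.42.0, other scalings, no filter, a joint fit of the 12 libraries, a replicate block, the mitochondrial share as a covariate, each library left out and, added later, only libraries with a mitochondrial share over 10%. The function was tested on simulated data. Figures were drawn with matplotlib 3.10.9.

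Same-numbered libraries of Nr5a2 KD and dKD deviated together, with correlations of 0.13, 0.221 and 0.254. In the other comparisons the correlations lay between -0.203 and 0.0594. Libraries with different numbers were not compared. In Nr5a2 KD and dKD alike, replicates 1 and 2 have a mitochondrial share over 10% and replicate 3 a lower one. The correlations therefore do not show that the numbers pair the libraries. With the block 0 members passed in dKD against Nr5a2 KD, as without it. The members and gene lists were chosen with earlier results of these data known. Members are named where they passed in a comparison or, where none passed, had the 3 smallest p, where they are stalk genes or paralogues with their partners, where they had the 5 highest or lowest TPM in control, and where they have a known role of their own. From other lists up to 3 genes per comparison are named. Members at the ends of the first component, members whose groups did not overlap and the length sets were chosen after their values were seen. Some genes are not reported here by name.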

Additional observations from a re-analysis of the deposited data

How the results depend on the processing

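Of the member counts in the 6 comparisons, those of lower members stayed at 0 in the control comparisons under every alternative. The count of higher members in Nr5a2 KD (1) became 0 with all 12 libraries in one fit and with mitochondrial share added as covariate, and 2 with the replicate block and with only libraries over 10% mitochondrial share (Rpl10l and Rpl39l, against 3.54% and 4.39% of all genes higher). In dKD (1) it became 21 with ERCC library sizes, which moved the median of all genes to 0.84 and called 21.2% of all genes higher, 0 with all 12 libraries, with the covariate and with only libraries over 10%, and 2 with the replicate block (Rpl10l, at 0.76 on the log2 scale, and Rpl39l, against 5.21% of all genes higher). In Klf5 KD (0) it became 2 with the replicate block (Rpl4 and Rps3, against 0.927% of all genes higher and 1.17% lower). With only libraries over 10%, where 1 Klf5 KD library remains, the log2 fold changes of Rpl38 and Rplp1 were 0.46 and 0.43. With each library left out the counts ranged from 0 to 2 in Nr5a2 KD and from 0 to 1 in dKD, and Rpl10l ranged from 1.17 to 1.74 and from 1.30 to 1.75 (log2). In dKD against Klf5 KD the count of lower members became 1 with DESeq2 (8.39% of all genes lower) and 14 with the covariate, and that of higher members 1 without the filter (3.65% of all genes higher) and 1 with the covariate. In Klf5 KD against Nr5a2 KD the count of lower members became 1 without the filter, 1 with the covariate and 1 with only libraries over 10%, each time Rpl10l, against 3.8%, 8.4% and 4.29% of all genes lower. Whether the replicate numbers pair the libraries is not known, and in the comparisons between knockdowns the block changed no count. Rpl4 in Klf5 KD reversed with the covariate (log2 fold change -0.082, adjusted p = 0.991). The member share of nuclear-encoded counts was 11.7% in control, 12.7% in Nr5a2 KD, 11.7% in Klf5 KD and 11.7% in dKD, and per base of exon length it was 11.7, 13.3, 12.7 and 12.6% in the order control, Nr5a2 KD, Klf5 KD, dKD. These group means join libraries on both sides of control. Of nuclear-encoded counts, knockdown libraries over 10% mitochondrial share had 12.45 to 14.5%, and the 5 with a lower one 10.05 to 11.1%. The causes were not tested. With 2 control libraries, no exact permutation test of a knockdown against control can pass 0.05.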
